A study of Mus musculus with 18 samples.

Results

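The 8 genes described here are regulators of the liver's conversion of carbohydrate into fat, with some of their targets. Srebf1 encodes the lipogenic transcription factor SREBP1, Mlxipl encodes the glucose-responsive factor ChREBP and Mlx its DNA-binding partner, and Nr1h3 and Nr1h2 encode the liver X receptors LXRα and LXRβ. Txnip, Pnpla3 and Mid1ip1 are known targets of these factors. The members were taken by gene symbol, as every probe set that carries one of the 8 symbols alone in the platform annotation. Of the 8 genes, 7 had such a probe set, 9 probe sets in all among 45101 on the array, and all 7 were among the 14201 genes tested. Nr1h2 was not analysed here.

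SREBP1c is made as a membrane-bound precursor. Insulin raises its transcription and its cleavage, and its nuclear part switches on the enzymes of fatty acid synthesis. ChREBP binds DNA as a pair with Mlx and is activated by sugar metabolites, so that glycolytic and lipogenic genes follow carbohydrate supply. The liver X receptors bind oxysterols together with a retinoid X receptor and induce sterol efflux genes, Srebf1 among their other targets, and so tie lipogenesis to sterol load.

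The arrays came from livers of male C57BL/6J mice, 62 weeks old, that had been housed individually, fed a low-fat diet for 1 week before the study and assigned to a regimen at 5 weeks of age. A high-fat diet with 60% fat was given with 30% calorie restriction (HF+CR), with a voluntary running wheel (HF+Ex) or ad libitum (HF). A low-fat diet with 10% fat was given with 30% calorie restriction (LF+CR), with the wheel (LF+Ex) or ad libitum (LF). Each of the 6 groups held 3 mice with 1 array each. The sources used here give neither the fed state nor the hour at sampling, and each restricted group's ration followed the intake of the ad libitum group on the same diet.

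The deposited values were linear intensities whose mean per array lay between 305 and 308. All 7 hepatocyte marker genes with a probe set, among them Alb and Ttr, were above the dim threshold (the 40th percentile of each array's intensities, 88.2 to 97.6) on all 18 arrays. Their summed intensity was 66123 to 74585. The first principal component held 27.0% of the variance, and 3 arrays lay at its far edge, HF 1, HF+Ex 3 and LF+CR 2. Another 4 arrays carried the pancreatic transcript Clps at 215 to 599 (HF+Ex 1, LF+CR 1, LF+Ex 3 and LF 1), against 52.6 to 62.1 on the other 14. The log2 difference of the clock genes Arntl minus Dbp lay between -4.32 and -1.88 on 17 arrays and at -0.66 on LF+Ex 3, which also had the lowest Srebf1 and Mid1ip1 values. Differences are on the log2(intensity + 16) scale from limma fitted to all 18 arrays, with Benjamini-Hochberg adjustment over 14201 genes and a call at an adjusted p under 0.05.

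**Figure D1:**
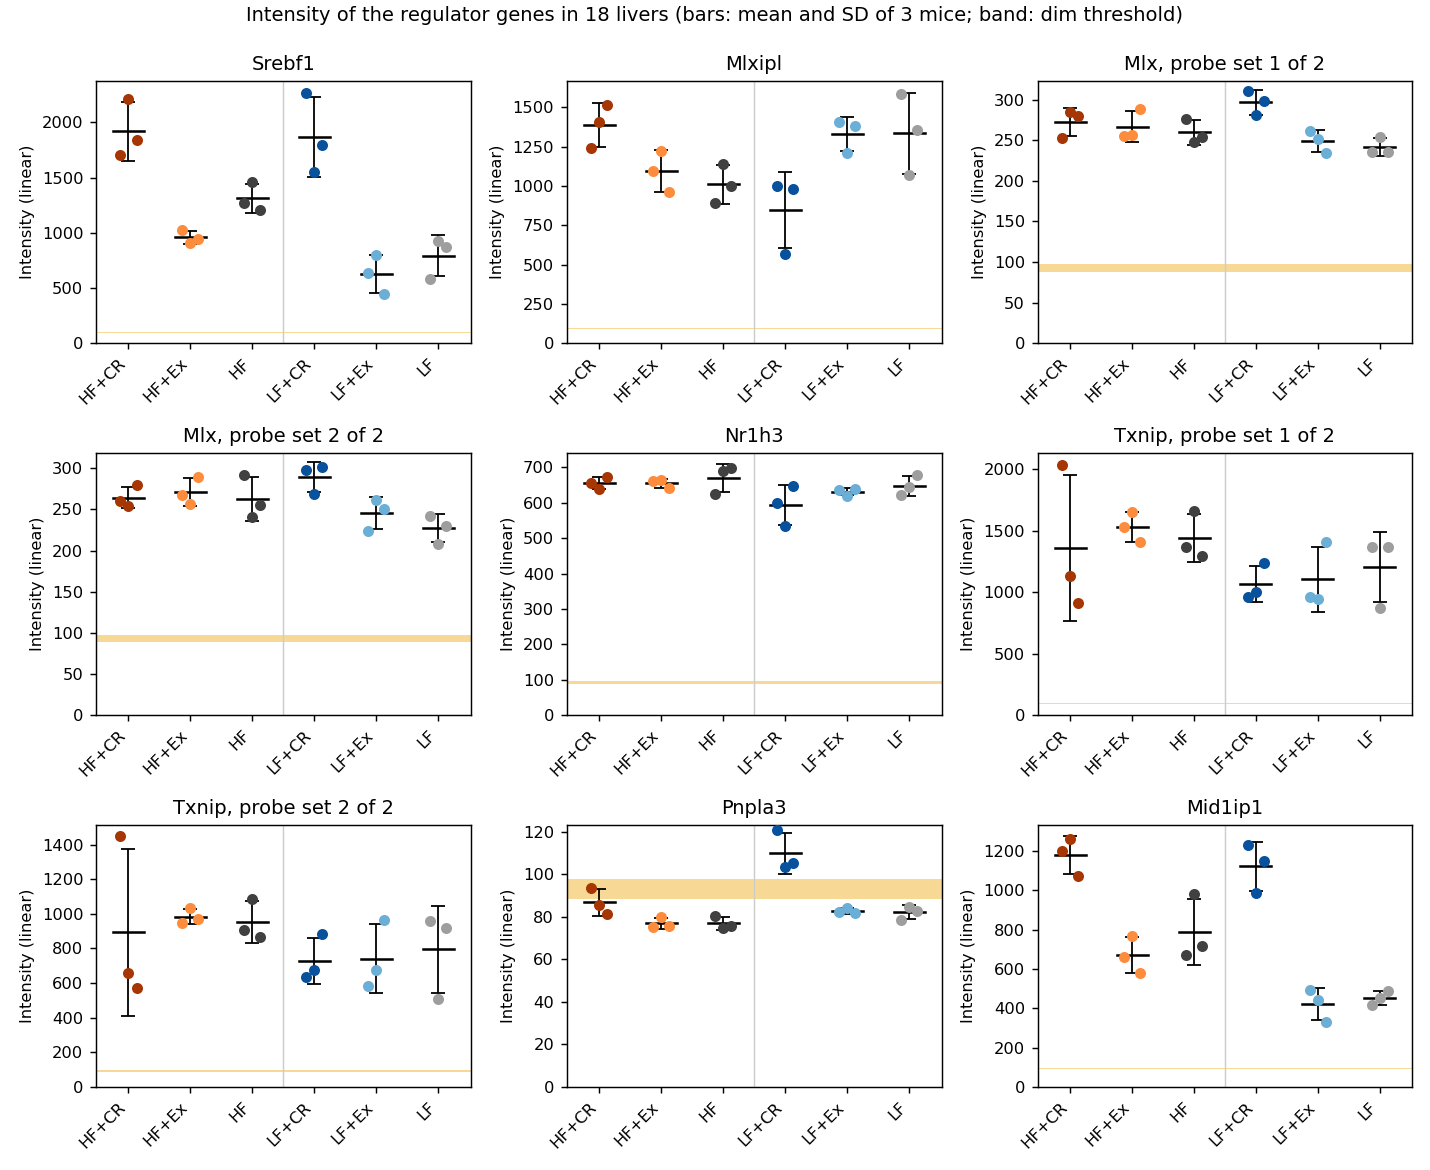
Linear intensity (y axis) of the 9 probe sets of the 7 regulator genes in each of 18 livers, by group (x axis), with 1 point per mouse, the group mean and SD as bars (n = 3) and the range of the dim thresholds as a yellow band. Srebf1 and Mid1ip1 are highest in HF+CR and LF+CR livers, Mlxipl is lowest in LF+CR livers, Pnpla3 lies above the band in LF+CR livers and not in the others, and 1 HF+CR liver stands out in both Txnip panels.

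Most of the calls for these genes came from calorie restriction. Of all genes, restriction called 6.07% on the high-fat diet and 5.57% on the low-fat diet, against 0.894% for HF versus LF. Running called 0% and 0.00704%. On the low-fat diet, Srebf1 rose 2.35-fold and Mid1ip1 2.42-fold, Mlx rose 1.21-fold, Pnpla3 came above the dim threshold, and Mlxipl fell to 0.629 of its LF level. The Mlx call was kept in 2 of 6 fits that left out 1 array, and the Mlxipl call in 3 of 6. On the high-fat diet Mid1ip1 passed the test of restriction, by 0.59 on the log2 scale, and the other members did not. No running effect passed the threshold. Nr1h3 and Txnip passed no test in any of 11 comparisons.

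Srebf1, on chromosome 11 (GRCm38.p6, 60199084 to 60224186), was measured by 1 probe set of the kind that matches several transcripts of a gene, so SREBP1a and SREBP1c messages cannot be told apart. Its intensity was 1704, 2214 and 1837 in HF+CR livers, against 1268, 1461 and 1209 in HF livers. It was 2266, 1555 and 1794 in LF+CR livers, against 583, 924 and 875 in LF livers. The restricted livers stood above the ad libitum livers of the same diet without overlap on both diets.

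The fitted Srebf1 difference for LF+CR versus LF was 1.23 (SE 0.20, adjusted p = 0.00142) and it was called in all 21 alternative analyses of that comparison, with values between 0.88 and 1.35. For HF+CR versus HF it was 0.54 (SE 0.20, adjusted p = 0.109) and missed the threshold. That difference was called in 4 alternatives, with array weights (0.65, adjusted p = 0.0148), with the compared groups alone (0.54, adjusted p = 0.0392), without the 4 arrays with pancreatic transcripts (0.54, adjusted p = 0.0285) and with the clock difference as a covariate (0.60, adjusted p = 0.00617). None of the 4 arrays with pancreatic transcripts is an HF+CR or HF liver. Leaving them out changed only the shared spread and the adjustment, not the livers compared. The 2 restricted groups had Srebf1 means of 1918 ± 264 in HF+CR and 1872 ± 362 in LF+CR (SD, n = 3 each). Their difference was 0.04 with a 95% interval of -0.37 to 0.46, so a difference within that interval was not resolved.

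Between the ad libitum diets, Srebf1 was higher in all 3 HF livers than in any LF liver. The difference of 0.74 had an adjusted p of 0.0856 and was not called, while it was called with array weights (0.65, adjusted p = 0.0251) and with the clock covariate (0.67, adjusted p = 0.0117). In runners, intensities were 1024, 910 and 949 in HF+Ex and 633, 799 and 450 in LF+Ex, a difference of 0.64 that also missed the threshold (adjusted p = 0.110) and was called with array weights (0.62, adjusted p = 0.0291). The order of the Srebf1 group means ran upward through LF+Ex (627), LF (794), HF+Ex (961), HF (1313), LF+CR (1872) and HF+CR (1918). Neighbours overlapped in this order except at HF over HF+Ex and at LF+CR over HF. Of the variance of Srebf1 over the 18 arrays, 88.4% lay between groups.

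For Srebf1, 3 start windows are annotated by RefSeq, and the one nearest the 3′ end of the gene is shown because it held the most matches of the motifs searched. It is the 250 bases before the start on the minus strand, chr11:60210472-60210721, written 5′ to 3′ with capitals at an inverted CCAAT box (ATTGG) and at GGGCGG Sp1 boxes. The Mid1ip1 window, chrX:10717115-10717364 on the plus strand, is set beside it because these 2 genes moved together, with capitals at CCGCCC, the Sp1 box on the other strand.
Srebf1: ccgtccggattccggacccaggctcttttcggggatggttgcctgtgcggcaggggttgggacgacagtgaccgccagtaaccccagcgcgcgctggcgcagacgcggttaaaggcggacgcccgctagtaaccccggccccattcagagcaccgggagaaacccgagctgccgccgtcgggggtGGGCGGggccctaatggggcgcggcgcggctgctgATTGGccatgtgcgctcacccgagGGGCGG
Mid1ip1: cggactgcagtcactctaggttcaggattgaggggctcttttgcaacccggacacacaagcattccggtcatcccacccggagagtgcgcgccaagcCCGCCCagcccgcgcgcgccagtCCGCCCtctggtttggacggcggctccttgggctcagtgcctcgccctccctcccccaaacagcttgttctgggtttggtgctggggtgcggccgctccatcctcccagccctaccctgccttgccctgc
Both windows held 2 Sp1 boxes. Any Sp1 box, on either strand, was in 32.7% of all 32851 RefSeq windows of this length, and the share with 2 was not counted. A CCAAT box was in the Srebf1 window and in 33.8% of all windows. Neither window held TCACNCCAC, the core of the sterol regulatory element in the form searched, which occurs in 1.05% of windows, or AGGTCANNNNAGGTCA, the direct repeat bound by LXR with its retinoid partner, which occurs in 0.0152%. Forms of either element that depart from these letters were not searched, so the lack of a match does not show that an element is absent.

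Mid1ip1, on the X chromosome (10717365 to 10719702), encodes a small relative of Spot 14 that binds acetyl-CoA carboxylase and promotes its polymerization into the active form. Its intensity was 1198, 1262 and 1074 in HF+CR livers, against 669, 978 and 716 in HF livers. It was 1227, 985 and 1151 in LF+CR livers, against 417, 451 and 489 in LF livers. The groups did not overlap on either diet.

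The Mid1ip1 difference was 0.59 for HF+CR versus HF (SE 0.15, adjusted p = 0.0339) and 1.28 for LF+CR versus LF (SE 0.15, adjusted p = 0.000145). The low-fat call was made in all 21 alternatives. The high-fat call was lost in 4 of 6 fits that left out 1 array, with 0.48 (adjusted p = 0.164) without HF 1, 0.53 (adjusted p = 0.106) without HF 3, 0.57 (adjusted p = 0.0997) without HF+CR 1 and 0.54 (adjusted p = 0.120) without HF+CR 2. It was also lost with the compared groups alone (adjusted p = 0.0525). The restriction effect on the high-fat diet minus that on the low-fat diet was -0.69 (SE 0.21, adjusted p = 0.0707) for Mid1ip1 and -0.69 (SE 0.28, adjusted p = 0.145) for Srebf1, neither called. With arrays centred on their median, with array weights and with the clock covariate the Mid1ip1 value was called, at -0.77, -0.68 and -0.56.

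Without restriction, the high-fat diet went with a higher Mid1ip1 signal. HF livers exceeded LF livers by 0.76 (SE 0.15, adjusted p = 0.0269). This call was lost whichever of the 6 arrays was left out, with differences of 0.60 to 0.87 and adjusted p up to 0.130. In runners the intensities were 663, 765 and 581 in HF+Ex, against 490, 441 and 330 in LF+Ex, a difference of 0.66 (adjusted p = 0.0374) that was still called in 1 of 6 such fits. It was 0.50 (adjusted p = 0.133) without LF+Ex 3 and between 0.56 and 0.76 in the other 4 fits that lost the call. Between HF+CR and LF+CR livers the difference was 0.07, with a 95% interval of -0.25 to 0.40.

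**Figure D2:**
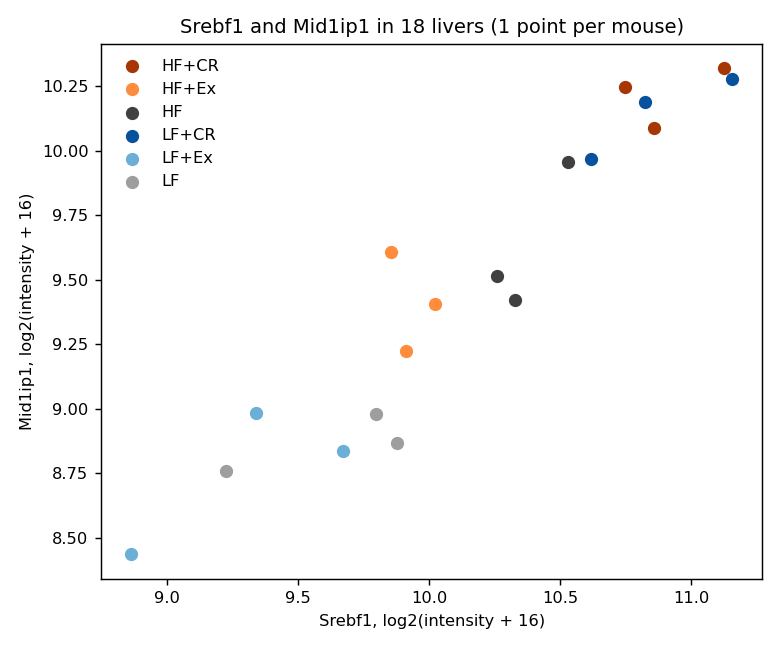
Log2(intensity + 16) of Mid1ip1 (y axis) against Srebf1 (x axis), with 1 point per liver coloured by group. The 6 restricted livers lie at the upper right and the 6 LF and LF+Ex livers at the lower left, and Pearson's r over the 18 arrays was 0.95.

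Over the 18 arrays, log2 Srebf1 and Mid1ip1 had a Pearson r of 0.95 and a Spearman rho of 0.94. Without the lowest and the highest Srebf1 arrays (LF+Ex 3 and LF+CR 1) r was 0.93. With the group means removed it was 0.62, so a large part of the likeness lay between groups. The 18 arrays share a platform and a normalization, and this value is a description. The genes outside the set whose profile over the 18 arrays was most like that of Srebf1 were Erg28 (r = 0.90), Sc5d (0.90) and Dhcr7 (0.89). With the group means removed, r was 0.48, 0.02 and 0.21, so the likeness to Sc5d and Dhcr7 lay mostly between groups. For Mid1ip1 they were Erg28 (0.90), Arhgap4 (0.90) and Selenbp1 (0.90), with 0.29, 0.64 and 0.43 once the group means were removed.

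Mlxipl, on chromosome 5 (135089890 to 135139768), was measured by 1 probe set that matches several transcripts, so the α and β forms of ChREBP cannot be told apart. Its intensity was 1238, 1407 and 1512 in HF+CR livers, against 894, 1141 and 996 in HF livers. It was 998, 570 and 978 in LF+CR livers, against 1581, 1069 and 1353 in LF livers. On the high-fat diet the 3 restricted livers were the higher ones and on the low-fat diet they were the lower ones, without overlap in either case. The lowest of the 18 values, 570, was LF+CR 2, one of the arrays at the edge of the first component.

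The Mlxipl difference for LF+CR versus LF was -0.67 (SE 0.18, adjusted p = 0.0442). The call was lost without LF+CR 2, at -0.41 (adjusted p = 0.171), without LF 1, at -0.54 (adjusted p = 0.161), and without LF 3, at -0.65 (adjusted p = 0.121). For HF+CR versus HF the difference was 0.45 (SE 0.18, adjusted p = 0.142), not called, and with array weights it was called (0.46, adjusted p = 0.0240). The test of the difference between these 2 effects gave 1.12 (SE 0.26, adjusted p = 0.0199, 95% interval 0.57 to 1.67). It was called in 24 of 27 alternatives, with values between 0.78 and 1.27. It missed the threshold without HF 1 (1.04, adjusted p = 0.0610), without the 3 arrays at the edge of the first component (0.78, adjusted p = 0.0535) and without the 4 arrays with pancreatic transcripts (1.13, adjusted p = 0.0662). Without those 4 arrays, the calls of this test over all genes fell from 816 to 287.

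Among restricted livers Mlxipl was higher on the high-fat diet, by 0.74 (SE 0.18, adjusted p = 0.0197), with no overlap. That call was lost without LF+CR 2 (0.48, adjusted p = 0.0753), HF+CR 2 (0.72, adjusted p = 0.0595) or HF+CR 3 (0.67, adjusted p = 0.0740). Between HF and LF livers the difference was -0.38 (adjusted p = 0.314), and the groups overlapped. Runners had 1097, 1225 and 958 in HF+Ex and 1405, 1207 and 1382 in LF+Ex, with no call for either diet's running effect. All neighbouring groups in the order of Mlxipl means overlapped, which ran from LF+CR (849) through HF (1010), HF+Ex (1093), LF+Ex (1331) and LF (1334) to HF+CR (1386). Outside the set, the profiles most like Mlxipl were those of Nox4 (r = 0.94), Arhgap42 (0.94) and Abca8a (0.93).

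The 2 RefSeq start windows of Mlxipl are shown because they differ in their motif matches. Both are 250 bases on the plus strand of GRCm38.p6, the first at chr5:135089640-135089889 and the second at chr5:135106641-135106890. Capitals mark the CACGTG E-box, the inverted CCAAT box and the Sp1 boxes in the first and TCACACCAC, a match of TCACNCCAC, in the second.
Mlxipl window 1: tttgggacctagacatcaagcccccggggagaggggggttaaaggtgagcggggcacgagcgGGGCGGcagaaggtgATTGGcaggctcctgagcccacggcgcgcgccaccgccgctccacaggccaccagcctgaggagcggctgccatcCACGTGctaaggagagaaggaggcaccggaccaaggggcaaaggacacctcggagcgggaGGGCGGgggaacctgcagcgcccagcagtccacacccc
Mlxipl window 2: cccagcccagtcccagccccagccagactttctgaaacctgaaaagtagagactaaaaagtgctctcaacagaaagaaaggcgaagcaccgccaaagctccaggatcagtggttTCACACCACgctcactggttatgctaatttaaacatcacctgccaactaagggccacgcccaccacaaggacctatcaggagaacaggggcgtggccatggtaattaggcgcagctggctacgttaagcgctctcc
The E-box of the first window, 98 to 93 bases before the start, is a letter match that 6.02% of all windows have. The match in the second window lies 136 to 128 bases before the start. CACGTGNNNNNCACGTG, an idealized carbohydrate response element, was in none of the 12 windows of the 8 genes and in none of all 32851 windows. Among the 8 genes, an E-box was found for Mlxipl and Mlx, and a CCAAT box and an Sp1 box for 5 genes each.

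Mlx, on chromosome 11 (101086707 to 101092207), varied little. Its brighter probe set read 311, 281 and 298 in LF+CR livers, against 235, 254 and 235 in LF livers, and its second probe set read 298, 269 and 302 in LF+CR livers, against 242, 208 and 230 in LF livers. Both probe sets separated the groups without overlap. The difference for LF+CR versus LF was 0.28 (SE 0.07, adjusted p = 0.0253), and 0.33 for the second probe set tested as a row of its own (adjusted p = 0.0277). The call was lost in 4 of 6 fits without 1 array, down to 0.25 (adjusted p = 0.105) without LF+CR 1. It was 0.26 without LF 1 and without LF 3 (adjusted p = 0.0817 and 0.0889), and 0.28 (adjusted p = 0.0523) without LF+CR 3. For HF+CR versus HF the difference was 0.06 (adjusted p = 0.568), with HF+CR livers at 252 to 284 and HF livers at 248 to 276. So the partner gene was higher in LF+CR livers, in which Mlxipl itself was lower. The 2 Mlx probe sets had r = 0.71 over the arrays.

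Nr1h3, on chromosome 2 (91184061 to 91202829), had the narrowest range of the 7, with a highest value 1.30 times its lowest. It read 656, 639 and 674 in HF+CR livers, against 626, 689 and 698 in HF livers. It read 599, 535 and 647 in LF+CR livers, against 622, 644 and 678 in LF livers. The groups overlapped on both diets. The differences were -0.03 (adjusted p = 0.797) for HF+CR versus HF and -0.13 (adjusted p = 0.329) for LF+CR versus LF, and the 95% interval of the second was -0.26 to 0.01. The lowest of the 18 values was again LF+CR 2.

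Txnip, on chromosome 3 (96557957 to 96561857), encodes an arrestin-like protein that binds thioredoxin and restrains glucose uptake. Its brighter probe set read 2036, 1131 and 910 in HF+CR livers, against 1364, 1662 and 1292 in HF livers. It read 961, 1001 and 1235 in LF+CR livers, against 1371, 874 and 1365 in LF livers. HF+CR 1 held the highest of all 18 values on both probe sets, which had r = 0.97, while the other 2 HF+CR livers lay below all HF livers. The restriction differences were -0.16 on the high-fat diet and -0.15 on the low-fat diet (SE 0.24 each, adjusted p = 0.707 and 0.831). Only 33.1% of the Txnip variance lay between groups, the lowest share of the 7 genes. Klf10 was the gene outside the set most like it (r = 0.76), followed by Agt (0.74) and Ppp4r3b (0.73).

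Pnpla3, on chromosome 15 (84167776 to 84189521), encodes a lipid droplet acyl hydrolase known as a lipogenic target in liver. It was above the dim threshold on 3 arrays only, the LF+CR livers at 120.95, 103.33 and 105.04. LF livers read 78.4, 84.8 and 82.8, and the other 12 livers 74.8 to 93.7, none of them above its array's threshold. The gene was therefore tested only because of the LF+CR group, in which it had to be high, so its levels are a description and its p-values are not given. It is left out of the counts of members called, except in the closing account of how results depend on the processing. LF+CR livers were at least 1.17-fold higher than LF livers, the mean of the bright group being set against the lowest level that counts as measured. The bound was 1.19-fold against LF+Ex livers. HF+CR livers were lower than LF+CR livers by at least 1.15-fold.

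**Figure D3:**
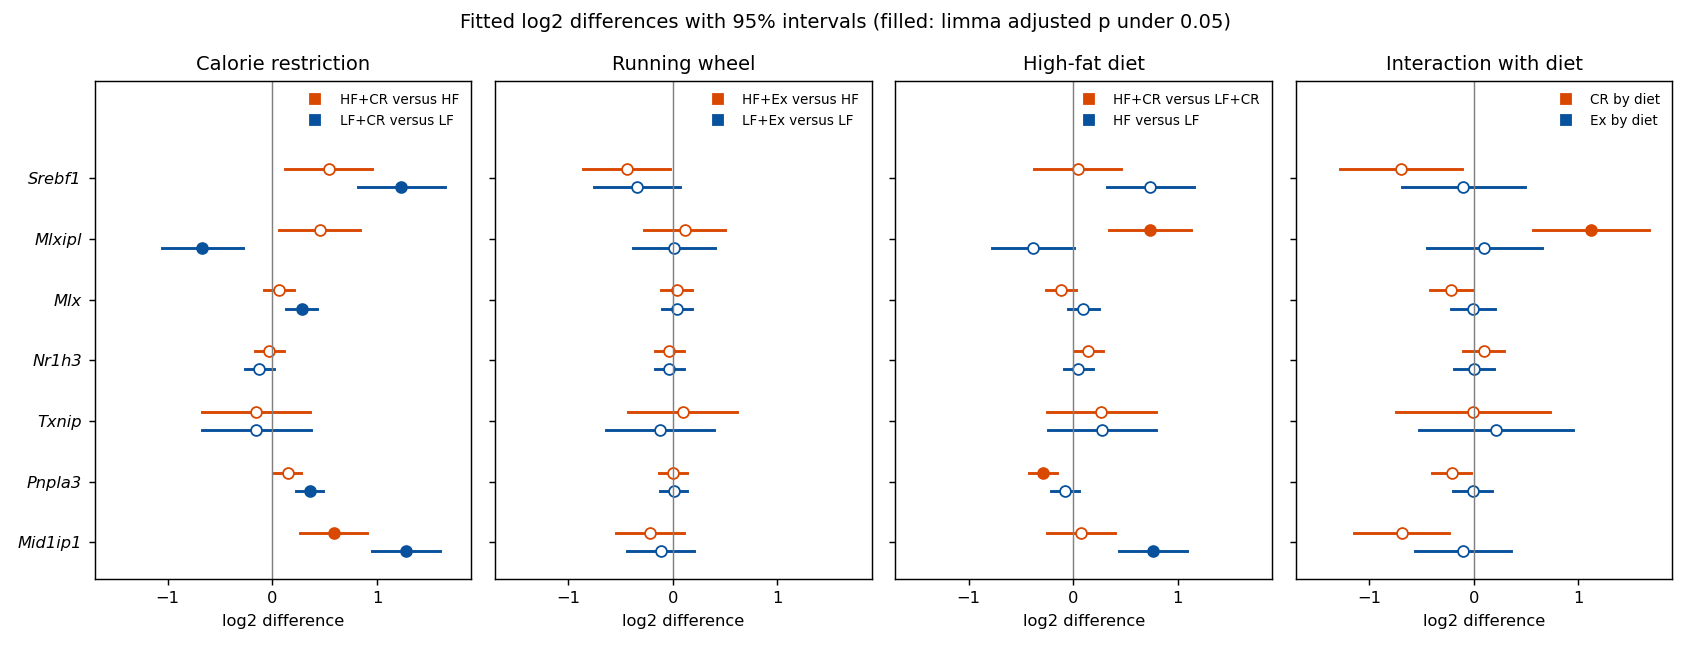
Fitted log2 difference (x axis) of the 7 regulator genes (y axis) with 95% confidence intervals for calorie restriction, running and high-fat diet and for the interaction of restriction and of running with diet, filled where limma's adjusted p is under 0.05. Srebf1 and Mid1ip1 lie to the right in both restriction comparisons, Mlxipl lies on opposite sides of 0 in them, and no running effect is filled. Pnpla3 entered the fit through the LF+CR group alone.

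By comparison, 4 of the 6 genes other than Pnpla3 were called for LF+CR versus LF, where 5.57% of all genes tested were called. The 3 higher were Mid1ip1, Srebf1 and Mlx, against 2.30% of all genes called higher, and the 1 lower was Mlxipl, against 3.27% called lower. The same 4 had no overlap between the groups, against 20.2% of all genes. With HF+CR against HF livers, 1 of 6 was called (Mid1ip1, higher), against 6.07% of all genes, 3.52% higher and 2.55% lower, and 3 of 6 did not overlap (Srebf1, Mlxipl and Mid1ip1), against 31.3%. In that comparison the markers of other cell types also differed in level. The summed intensity of 8 Kupffer cell markers was 5391 to 6513 in HF+CR livers and 6839 to 10302 in HF livers, and that of 8 pancreatic acinar markers was 2083 to 2647 in HF+CR livers and 1170 to 1213 in HF livers. The acinar sum did not reflect the list as a whole, since the median log2 difference of the 8 markers was 0.11. Clps read 57.7 to 61.8 in HF+CR livers and 53.8 to 59.6 in HF livers. The sums of 7 sinusoidal endothelial, 7 stellate and 4 adipocyte markers were lower in HF+CR livers, without overlap, and the cholangiocyte sum was higher (500.02 to 1034 in HF+CR livers and 467 to 498.13 in HF livers). Of these lists, 2 endothelial and 1 acinar marker passed the test, and no Kupffer, stellate, cholangiocyte or adipocyte marker. No listed marker was at 0, and Lep alone was dim on all arrays. In whole liver, fewer cells of a type and less RNA per cell cannot be told apart, and the part of cell makeup in the regulator differences was not tested.

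For LF+CR versus LF, the Kupffer sums were 6615 to 11479 in LF+CR livers and 5458 to 9109 in LF livers, the acinar sums were 1061 to 4041 in LF+CR livers and 1279 to 3287 in LF livers, and both overlapped. The hepatocyte sums were 73109 to 74006 in LF+CR livers and 66123 to 71589 in LF livers, without overlap, and the cholangiocyte sums were 493 to 761 in LF+CR livers and 451 to 492 in LF livers, also without overlap. Without the 4 arrays with pancreatic transcripts, Srebf1 and Mid1ip1 were the 2 genes still called. Mlx (0.23, adjusted p = 0.238) and Mlxipl (-0.67, adjusted p = 0.165) were not.

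For HF versus LF, 1 of 6 genes was called (Mid1ip1), against 0.894% of all genes, and 2 did not overlap (Srebf1 and Mid1ip1), against 22.6%. Summed stellate markers (4714 to 5256 in HF livers, 3788 to 4586 in LF livers) and adipocyte markers (608 to 875 in HF livers, 469 to 491 in LF livers) did not overlap there, nor did acinar markers (1170 to 1213 in HF livers, 1279 to 3287 in LF livers). Of the endothelial markers, 1 passed the test as higher. In runners, HF+Ex versus LF+Ex called 1 of 6 (Mid1ip1), against 1.75%, and 3 of 6 did not overlap (Srebf1, Nr1h3 and Mid1ip1), against 22.7%. Stellate sums (4518 to 6969 in HF+Ex livers, 3940 to 4327 in LF+Ex livers) and endothelial sums (3823 to 4329 in HF+Ex livers, 3538 to 3667 in LF+Ex livers) did not overlap there. HF+CR versus LF+CR called 1 of 6, Mlxipl, which was higher, against 8.93% of all genes, 5.62% higher and 3.31% lower, and it alone had no overlap, against 27.1%. Kupffer sums did not overlap in that comparison, at 5391 to 6513 in HF+CR livers and 6615 to 11479 in LF+CR livers. The part of these markers in the calls was not tested. The interaction of restriction with diet called Mlxipl alone, which was positive, against 5.75% of all genes, 3.35% positive and 2.39% negative.

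Running gave no call among the regulator genes by limma. On the low-fat diet LF+Ex versus LF called 0.00704% of all genes, and 561 genes but no member had an unadjusted p under 0.05. All 6 overlapped between these groups, where 8.82% of all genes did not. The endothelial sums were lower in LF+Ex livers (3538 to 3667) than in LF livers (3926 to 4251). HF+Ex versus HF called 0% of genes, with 348 genes at an unadjusted p under 0.05. Srebf1 was the 1 member among them, with 1024, 910 and 949 in HF+Ex livers against 1268, 1461 and 1209 in HF livers, a difference of -0.44 (limma, adjusted p = 1.00). The HF+Ex livers lay below the HF livers without overlap, as 1 of 6 genes against 8.12% of all genes. The interaction of running with diet called no member and 0.00704% of all genes, with 358 at an unadjusted p under 0.05.

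Restricted livers were also compared with those of runners on the same diet. LF+CR versus LF+Ex called 4 of 6 genes, against 9.31% of all genes, with Srebf1 1.57 higher (adjusted p = 9.43e-05), Mid1ip1 1.39 higher (adjusted p = 3.16e-05), Mlx 0.24 higher and Mlxipl 0.68 lower (log2 -0.68, adjusted p = 0.0294). The same 4 did not overlap, against 27.4% of all genes. HF+CR versus HF+Ex called Srebf1 (0.98, adjusted p = 0.0148) and Mid1ip1 (0.81, adjusted p = 0.0107), 2 of 6 against 2.71%, while 3 of 6 did not overlap (Srebf1, Mlxipl and Mid1ip1), against 28.6%. The hepatocyte sums of restricted livers were above those of runners without overlap on both diets. The Srebf1 call was lost without HF+Ex 3 (0.97, adjusted p = 0.0608) or HF+CR 2 (0.87, adjusted p = 0.0729), and the Mid1ip1 call without HF+Ex 3 (0.71, adjusted p = 0.0616). The Mlx call was lost in 5 of 6 fits without 1 array, down to 0.20 (adjusted p = 0.151) without LF+Ex 3. The second Mlx probe set, tested by limma as a row of its own, gave 0.23 (adjusted p = 0.102) and was not called. The Mlxipl call was lost without LF+CR 2 (-0.42, adjusted p = 0.110), LF+Ex 1 (-0.64, adjusted p = 0.0957) or LF+Ex 3 (-0.65, adjusted p = 0.0878). These comparisons share their restricted livers with those above.

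Other calls changed without the arrays that stood apart. Without the 4 arrays with pancreatic transcripts, Mid1ip1 lost its call for HF versus LF (0.71, adjusted p = 0.161), for HF+Ex versus LF+Ex (0.51, adjusted p = 0.244) and for HF+CR versus HF+Ex (0.80, adjusted p = 0.0612). In LF+CR versus LF+Ex, Mlx (0.16, adjusted p = 0.357) and Mlxipl (-0.79, adjusted p = 0.0822) lost theirs, which left 2 genes called, Srebf1 and Mid1ip1. Calls over all genes fell as well without these 4 arrays, from 127 to 13 for HF versus LF and from 248 to 54 for HF+Ex versus LF+Ex. They fell from 385 to 39 for HF+CR versus HF+Ex and from 1322 to 468 for LF+CR versus LF+Ex. So the lost calls were not particular to these members. Without the 3 arrays at the edge of the first component, calls were lost for Mid1ip1 in HF+CR versus HF (0.48, adjusted p = 0.108) and for Srebf1 in HF+CR versus HF+Ex (0.97, adjusted p = 0.0571). Mlxipl then missed the threshold for LF+CR versus LF (-0.41, adjusted p = 0.134), for LF+CR versus LF+Ex (-0.42, adjusted p = 0.0879) and for HF+CR versus LF+CR (0.48, adjusted p = 0.0606).

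The listed SREBP1c targets, enzymes and carriers of fatty acid synthesis, were higher with Srebf1 on the low-fat diet. Of 15 tested, 10 rose and 0 fell for LF+CR versus LF, with a median of 0.79 against -0.01 over all genes, of which 2.30% rose and 3.27% fell. Fasn, the fatty acid synthase, averaged 3947 ± 1017 in LF+CR livers and 655 ± 138 in LF livers (SD, n = 3 each), a difference of 2.55 (adjusted p = 2.18e-06). Acly, which makes cytosolic acetyl-CoA from citrate, was 2.08 higher, the lipogenic protein Thrsp 1.92 higher and the elongase Elovl6 1.83 higher. Without the 4 arrays with pancreatic transcripts, 6 of the 15 were called, all higher.

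The same list gave 3 higher and 0 lower for HF+CR versus HF, against 3.52% and 2.55% of all genes, with a median of 0.04 against 0.04 over all genes. They were Acss2 (0.96, adjusted p = 0.0213), which activates acetate, Acly (0.93, adjusted p = 0.00206) and the citrate carrier Slc25a1 (0.22, adjusted p = 0.0294). The count was 2 without the 4 arrays with pancreatic transcripts and 1 without HF 2, HF 3 or HF+CR 2. Srebf1 itself was not called in this comparison, except in the 4 alternatives given with its value. The HF+CR and LF+CR livers, whose Srebf1 and Mid1ip1 levels were not resolved from each other, differed in the targets. Of the 15, 9 were lower in HF+CR livers and 0 higher, against 3.31% and 5.62% of all genes, with a median of -0.81 against 0.03 over all genes. Elovl6 averaged 564 ± 129 in HF+CR livers and 2421 ± 904 in LF+CR livers (SD, n = 3 each), a difference of -2.03 (adjusted p = 0.000254). Acaca, the acetyl-CoA carboxylase that Mid1ip1 binds, differed by -1.44, the malic enzyme gene Me1 by -1.30 and Acacb, the mitochondrial-side carboxylase, by -1.28. The test of restriction by diet called 5 of the 15, all negative, against 2.39% of all genes, led by Fasn (-1.96), Elovl6 (-1.87), Acaca (-1.45) and Acly (-1.16), and 2 of them without the 4 arrays with pancreatic transcripts.

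**Figure D4:**
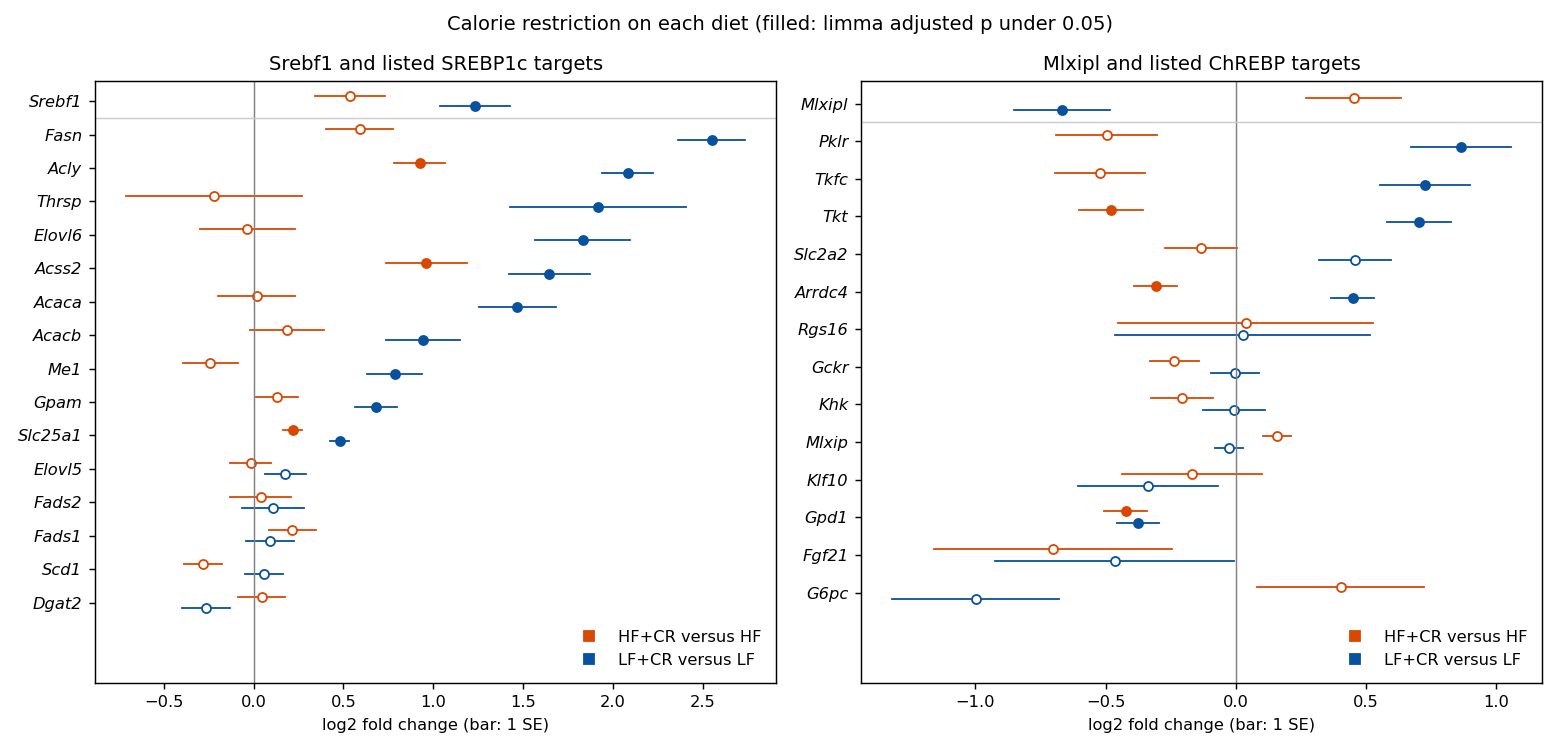
Log2 fold change (x axis, bars of 1 SE) for calorie restriction on each diet (high-fat and low-fat) of Srebf1 with 15 listed SREBP1c targets (left) and of Mlxipl with 13 listed ChREBP targets (right), filled where limma's adjusted p is under 0.05. For most lipogenic targets the low-fat points lie to the right of the high-fat ones, and Mlxipl lies opposite to Pklr, Tkfc, Tkt and Arrdc4 on each diet.

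Of the listed ChREBP targets, 13 were tested, and 4 rose and 1 fell for LF+CR versus LF, the comparison in which Mlxipl was lower, against 2.30% and 3.27% of all genes, with a median of -0.0035 against -0.01 over all genes. Those higher were Pklr, the liver pyruvate kinase (0.87, adjusted p = 0.0147), the triokinase Tkfc (0.73, adjusted p = 0.0215), the transketolase Tkt (0.70, adjusted p = 0.00306) and Arrdc4, an arrestin-family relative of Txnip (0.45, adjusted p = 0.00456). The gene that fell was the glycerol-3-phosphate dehydrogenase Gpd1, as Mlxipl did. The count called was 3 without LF 1 and 2 without LF+CR 1. None of the 13 was called without the 4 arrays with pancreatic transcripts.

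On the high-fat diet, 3 of the 13 fell and 0 rose for HF+CR versus HF, against 2.55% and 3.52% of all genes. They were Tkt (-0.48, adjusted p = 0.0326), Gpd1 (-0.42, adjusted p = 0.00781) and Arrdc4 (-0.31, adjusted p = 0.0406). In each fit that left out 1 array the count was 1 or 2, and it was 1 without HF 1, HF 3, HF+CR 1 or HF+CR 2. The restriction by diet test called 4 of the 13, all negative, against 2.39% of all genes, and 2 without the 4 arrays with pancreatic transcripts. The 4 were Pklr (-1.36), Tkfc (-1.25), Tkt (-1.18) and Arrdc4 (-0.76), and that of Mlxipl was positive. Of the pathway's sugar-handling genes upstream, 8 were tested. Pgd, of the pentose phosphate branch, rose by 1.42 for LF+CR versus LF (adjusted p = 0.00473), a call lost without the 4 arrays with pancreatic transcripts. It was 1 of 8, against 2.30% of all genes called higher. The hexokinase Hk2 (-0.51) and the phosphofructokinase Pfkl (-0.27) fell for HF+CR versus HF, 2 of 8 against 2.55% of all genes. Either or both calls were lost whichever of the 6 arrays was left out.

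The 12 listed LXR targets had no call for LF+CR versus LF by limma, with a median of -0.02 against -0.01 over all genes, and 0 or 1 call in each alternative. With restriction on the high-fat diet 2 fell, against 2.55% of all genes, Smpdl3a (-0.45, adjusted p = 0.00224), a phosphodiesterase, and Mylip (-0.43, adjusted p = 0.00638), a ubiquitin ligase of the LDL receptor. Between HF+CR and LF+CR livers the phospholipid transfer protein Pltp was lower (-1.24, adjusted p = 0.00263) and the sterol exporter Abca1 higher (0.28, adjusted p = 0.0323), the Abca1 call being lost without LF+CR 1, LF+CR 3, HF+CR 2 or HF+CR 3 and without the 4 arrays with pancreatic transcripts. These were 1 lower and 1 higher of the 12, against 3.31% and 5.62% of all genes. Of 18 partners and co-regulators of the receptors and of SREBP, none was called for either restriction comparison with ad libitum feeding. Of all genes, 6.07% were called on the high-fat diet and 5.57% on the low-fat diet.

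Of 10 genes that process or stabilize SREBP, 3 were called for LF+CR versus LF, against 5.57% of all genes. Insig1, which holds the precursor in the endoplasmic reticulum and is itself an SREBP target, was higher by 0.84 (adjusted p = 0.000214). Srebf2, the sterol-synthesis relative of Srebf1, was 0.26 higher (adjusted p = 0.0184). Creb3l3, a liver membrane-bound factor, was lower, at -0.45 (adjusted p = 0.000394). For HF+CR versus HF 0 of the 10 were called, against 6.07% of all genes. Restriction by diet called Insig1 (-0.78) and Creb3l3 (0.44), 1 negative and 1 positive of 10, against 2.39% and 3.35% of all genes. The Creb3l3 call was lost without the 3 arrays at the edge of the first component and without the 4 arrays with pancreatic transcripts.

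Of 9 lipid droplet lipases and their partners, set beside Pnpla3, 3 fell on each diet and 0 rose, where 2.55% of all genes fell on the high-fat diet and 3.27% on the low-fat diet. On the high-fat diet they were the droplet protein Plin5 (-0.90), Hsd17b13 (-0.62) and the monoglyceride lipase Mgll (-0.52), with a list median of -0.35 against 0.04 over all genes. On the low-fat diet they were G0s2, an inhibitor of adipose triglyceride lipase (-2.09, adjusted p = 0.00946), Plin5 (-0.88) and Mgll (-0.75), with a median of -0.19 against -0.01 over all genes, and 1 was called without the 4 arrays with pancreatic transcripts. Of 8 thioredoxin and arrestin genes set beside Txnip, none was called for HF+CR versus HF or for LF+CR versus LF, against 6.07% and 5.57% of all genes.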

How the data were processed

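Total RNA from 18 livers was hybridized to Affymetrix Mouse Genome 430 2.0 arrays, per the labels' protocols. The authors deposited 1 table of linear intensities, between 31.1 and 21654, for 45101 probe sets. The method that summarized and scaled them is not given in the sources used here, and no detection calls were used. Probe sets were named from the platform annotation: 34945 carried 1 symbol, 932 several and 9160 none, besides 64 controls. Each gene was read from its brightest probe set and kept if above the 40th percentile of the array on at least 3 arrays, which left 14201 of 18193 genes. Log2(intensity + 16) values were fitted with limma 3.58.1 in R 4.3.3, with 1 mean per group, 9 pairwise comparisons and 2 interactions, moderated by eBayes, two-sided, with Benjamini-Hochberg adjustment. The number of arrays, 3 per group, limits the precision: the median SE was 0.085 for a pair and 0.12 for an interaction. On simulated data for LF+CR versus LF over 14201 genes, 74.5% of changes of 0.5 and 96.2% of changes of 1 on the log2 scale were recovered. On average, 5.2% of the calls in a run were false. These shares are for genes drawn from the whole array with independent noise. Srebf1, Mlxipl, Mid1ip1 and Txnip had SEs of 0.20, 0.18, 0.15 and 0.24 for a pair, above the median, so the shares do not apply to them. Quantile scaling, median centring, other offsets and filters, averaged or separate probe sets, other variance models, a replicate block and leaving out arrays were tried. The 3 genes outside the set with the highest Pearson r were found for each member. They are named here for Srebf1, Mid1ip1, Mlxipl and Txnip, and left out for Mlx, Nr1h3 and Pnpla3. Of each gene list, up to 4 called genes with the largest differences are named. Genes named beyond that rule (Gpd1 on the low-fat diet) were chosen after their values were seen. The members and lists were chosen with earlier results of these data known. Promoter sequences and coordinates are from RefSeq, GRCm38.p6. Replicate numbers did not pair samples.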

Additional observations from a re-analysis of the deposited data

Results flagged for a closer look

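The restriction effect on Mlxipl differed between the diets by a test of that difference. HF+CR minus HF was 0.45 and LF+CR minus LF was -0.67, and the interaction was 1.12 (SE 0.26, limma adjusted p = 0.0199). All 3 HF+CR livers lay above all 3 HF livers, where 31.3% of all genes did not overlap. All 3 LF+CR livers lay below all 3 LF livers, where 20.2% of all genes did not overlap. The high-fat difference alone was not called (limma, adjusted p = 0.142). The interaction missed the threshold without HF 1 (1.04), without the 3 arrays at the edge of the first component (0.78) and without the 4 arrays with pancreatic transcripts (1.13).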

How the results depend on the processing

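No call among the 7 genes changed sign under any alternative. In all 21 alternatives of LF+CR versus LF, Srebf1 and Mid1ip1 were called. No member was called for running, or for running by diet, under any alternative. The counts that follow are of the 7 genes, Pnpla3 included. In the reported fit they were 5 for LF+CR versus LF, 5 for LF+CR versus LF+Ex and 2 for HF+CR versus LF+CR. Without Pnpla3 they were 4, 4 and 1 of 6 genes. Pnpla3 entered the test through its LF+CR level, so its calls in these comparisons are not a result. The number of the 7 genes called moved by over 1.5 times as follows. With arrays centred on their median it was 3 for LF+CR versus LF and 2 for restriction by diet. With array weights it was 2 for HF versus LF, 3 for HF+CR versus HF, 2 for HF+Ex versus LF+Ex and 3 for restriction by diet. Fitting only the compared groups gave 0 for HF versus LF, 2 for LF+CR versus LF, 3 for LF+CR versus LF+Ex, 0 for HF+CR versus LF+CR and 0 for HF+Ex versus LF+Ex. The 60th percentile filter, which drops Pnpla3, gave 1 for HF+CR versus LF+CR. Leaving out 1 array gave 0 for HF versus LF, 3 to 5 for LF+CR versus LF, 0 to 1 for HF+CR versus HF, 3 to 4 for LF+CR versus LF+Ex, 0 to 2 for HF+CR versus HF+Ex, 1 to 2 for HF+CR versus LF+CR, 0 to 1 for HF+Ex versus LF+Ex and 0 to 1 for restriction by diet. Smaller moves were to 4 for LF+CR versus LF with no dim filter, the 60th percentile filter, the replicate block or without the 3 edge arrays, and to 4 for LF+CR versus LF+Ex with median centring, that filter, the block, the clock covariate or without those arrays. The next 3 alternatives were chosen after seeing the data. Without HF 1, HF+Ex 3 and LF+CR 2, at the edge of the first component, the count was 0 for HF+CR versus HF, 1 for HF+CR versus HF+Ex, 1 for HF+CR versus LF+CR and 0 for restriction by diet. Without the 4 arrays with pancreatic transcripts it was 0 for HF versus LF, 2 for LF+CR versus LF, 2 for HF+CR versus HF, 2 for LF+CR versus LF+Ex, 1 for HF+CR versus HF+Ex, 1 for HF+CR versus LF+CR, 0 for HF+Ex versus LF+Ex and 0 for restriction by diet. With the Arntl minus Dbp difference as a covariate it was 2 for HF versus LF, 2 for HF+CR versus HF and 2 for restriction by diet. Where fewer arrays enter a fit, fewer residual degrees of freedom remain, and the fitted differences can change too. The cause of a changed count was not tested for any alternative. With 1 array left out, the variance was still pooled over all groups.

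The numbers of genes called over the whole array depended on the alternative more than this: 13 to 988 for HF versus LF (127 in the reported fit), 189 to 1435 for LF+CR versus LF (791), 284 to 2174 for HF+CR versus HF (862), 0 to 7 for LF+Ex versus LF (1), 0 to 1 for HF+Ex versus HF (0), 468 to 2539 for LF+CR versus LF+Ex (1322), 39 to 1067 for HF+CR versus HF+Ex (385), 440 to 2029 for HF+CR versus LF+CR (1268), 54 to 1224 for HF+Ex versus LF+Ex (248), 287 to 1592 for restriction by diet (816) and 0 to 2 for running by diet (1). The replicate numbers are shared by the groups but did not pair the samples: over 45 same-numbered pairs the median correlation of deviations was -0.05, and 2 of 18 arrays were closest to their own number. With a replicate block, Mlxipl in LF+CR versus LF was -0.67 with an adjusted p of 0.0608, and Mlx in LF+CR versus LF+Ex was 0.24 with an adjusted p of 0.0684; no other call of a member was lost. Intensities carry no counts, so precision is set by 3 arrays per group, and Pnpla3 is bounded by the dim threshold in 5 of 6 groups.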
